A study of Caenorhabditis elegans with 19 samples.

Results

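The pals genes of Caenorhabditis elegans encode proteins with the ALS2CR12 signature, a stretch of unknown biochemical function that is spread over an expanded gene family in this nematode. The members were all genes whose WormBase name is pals followed by a number. There were 38 of them among the 21975 genes measured, and all 38 had a value in every sample.

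Several pals genes are known for their induction in the intracellular pathogen response, a transcriptional programme switched on in intestinal and other cells by microsporidia, by the Orsay virus, by a blocked proteasome and by long heat exposure. The family also holds regulators of that programme. pals-22 is known to repress it and its neighbour pals-25 to activate it, pals-17 is known to repress it, and pals-16 and pals-20 are known to activate it. pals-5 is widely used as its reporter. Animals in which the programme is on tolerate heat and protein stress better, and a cullin ubiquitin ligase built on cul-6 takes part in that tolerance.

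The data were poly(A) RNA sequencing of whole populations, as FPKM (fragments per kilobase of transcript, scaled between samples) in 19 samples. At the third larval stage (L3), sampled once larvae had fed for 24 h, wild type (N2 Bristol) had 4 samples, as did the single mutant xol-1 (ne4472) in strain WM458 and the double mutant xol-1 (ne4472) sex-1 (gk829) in strain EKM198. The double mutant was also sampled as early embryos (3 samples, from bleached young adults) and as first-stage larvae (L1, 4 samples, fed for 3 h). Both mutant strains carry the same xol-1 allele on the X chromosome, and by their labels they differ in the sex-1 allele. They are separate strains, so other differences in background cannot be told apart from that allele. xol-1 is known as the early switch of sexual fate and is kept off in hermaphrodites, and sex-1 encodes a nuclear hormone receptor that represses it. The labels do not say how many animals or cultures a sample came from, so a p-value here measures the spread between these samples, which may be technical. In whole animals, fewer cells of a type and less RNA per cell cannot be told apart.

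At L3 the FPKM columns summed to between 1490760 and 1717680, and 1 FPKM over 1 kb stood for 20.5 to 34.2 fragments. Replicates correlated across genes with r of 0.986 to 0.996, and no pair of samples held identical values. sex-1 ranged from 4.05 to 5.59 FPKM in wild type, from 3.80 to 5.71 in the single mutant and from 3.36 to 4.17 in the double mutant, a difference of -0.33 on the log2(FPKM + 1) scale between the mutants (SE 0.13, limma adjusted p = 0.0504). The stretch that gk829 removes is not given in the sources used here, so this level does not check the label. xol-1 was at or near 0 in every L3 sample, wild type included, with a highest value of 0.120 FPKM. 

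The pals genes were clustered in the genome, and none lay on the X chromosome (positions are from the WBcel235 annotation). A run of 14 members occupied I 13083321 to 13144623, with 7 on each strand, in the order pals-13, pals-2, pals-10, pals-3, pals-12, pals-4, pals-8, pals-11, pals-7, pals-5, pals-9, pals-6, pals-14 and pals-15. pals-24, pals-23, pals-22 and pals-25 stood in a row on the plus strand at III 120435 to 137975. A group of 7 members (pals-40, pals-21, pals-20, pals-17, pals-16, pals-19 and pals-18) lay at III 1376945 to 1406263. pals-26, pals-27 and pals-28 lay at III 4375154 to 4387757, pals-29 and pals-30 at IV 14539685 to 14551970, and pals-37, pals-39 and pals-38 at V 12437440 to 12446995. These 6 clusters, joined where members were at most 50 kb apart, held 33 members, and the remaining 5 (pals-1, pals-31, pals-32, pals-33 and pals-34) stood alone. By chromosome there were 15 members on I, 14 on III, 2 on IV and 7 on V. The exonic length ran from 277 to 2719 bases, and 10 members overlapped another measured gene, among them pals-3 with pals-12 and with pals-4, and pals-18 with pals-19. How fragments shared by similar or overlapping members were assigned is not given in the sources used here, so the split of signal between such neighbours is uncertain.

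The family was led by few members at every stage. At L3 the highest were pals-17 (41.6 ± 3.21 FPKM, SD, n = 4 in wild type), pals-22 (35.8 ± 1.65), pals-24 (35 ± 4.59), pals-25 (23.4 ± 1.69), pals-19 (23.2 ± 3.0) and pals-23 (18.4 ± 2.23). These 6 genes held 69.9% to 72.0% of the summed family level in the wild-type samples, 72.9% to 75.4% in the single mutant and 66.5% to 69.3% in the double mutant. They come from the 2 clusters on the left of chromosome III that also hold the known regulators pals-22, pals-25 and pals-17. The 14 genes of the chromosome I cluster were low by comparison: in wild type pals-6 had 8.01 ± 1.15 FPKM and pals-14 had 3.19 ± 0.519, while the reporter gene pals-5 had 0.277 ± 0.070. The number of members with a mean of at least 1 FPKM was 20 in wild type, 19 in the single mutant and 23 in the double mutant. At L3 no wild-type or xol-1 sample had a value above 0 for pals-12, and no xol-1 sample had one for pals-10. Summed over the 38 genes, the level ran from 228 to 271 FPKM in wild type, from 202 to 247 in the single mutant and from 249.5 to 282 in the double mutant, so wild type overlapped both mutants and the 2 mutants did not overlap each other.

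**Figure D1:**
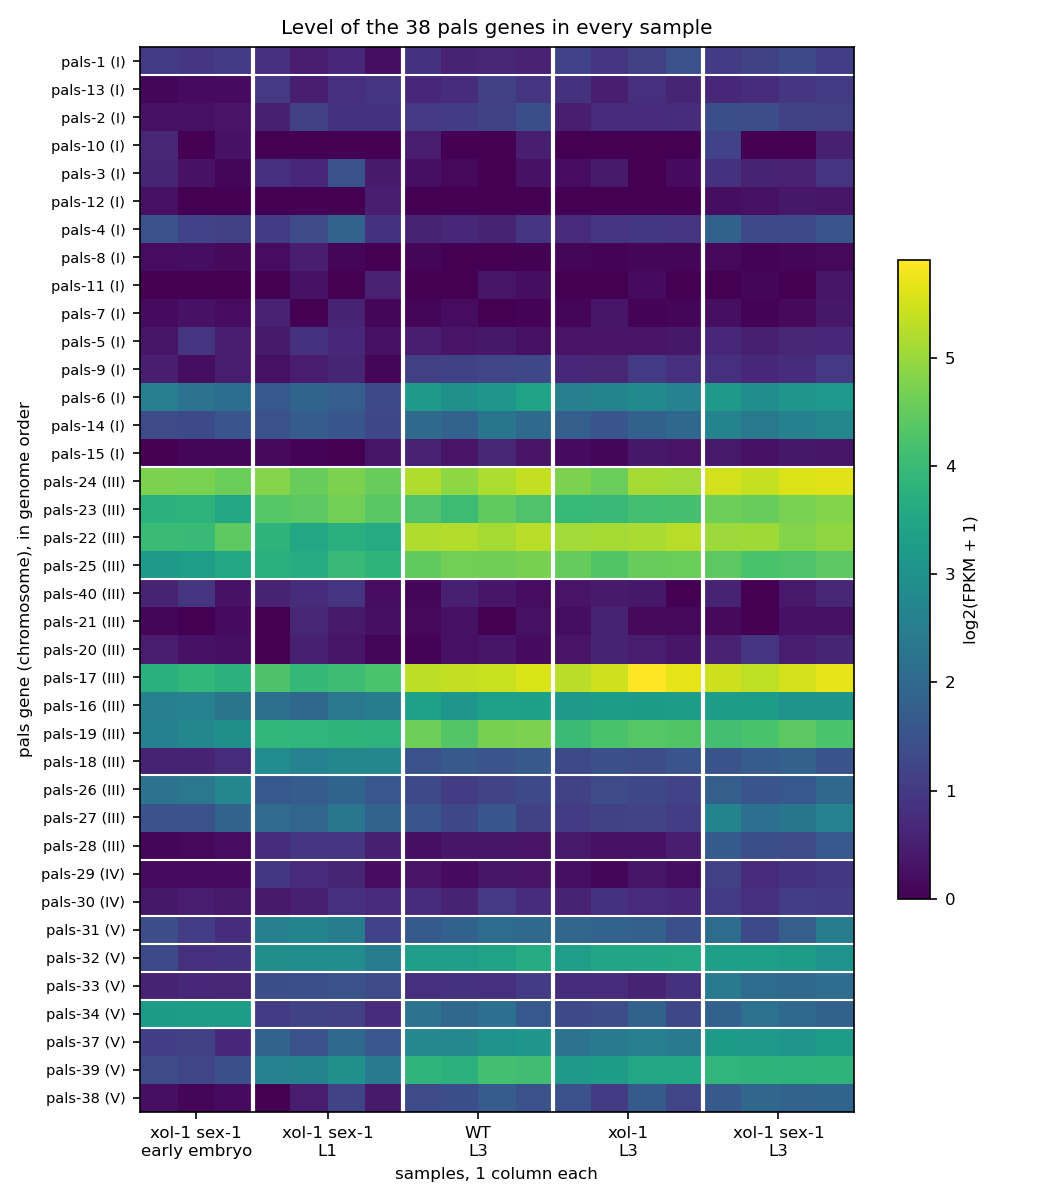
Level of each of the 38 pals genes (rows, in genome order with the chromosome in brackets; thin lines part the clusters) in each of the 19 samples (columns, grouped by genotype and stage), coloured by log2(FPKM + 1). The rows of pals-24, pals-23, pals-22, pals-25, pals-17 and pals-19 are bright in every sample, and most rows of the chromosome I cluster are dark.

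Stages could be followed in the double mutant, where they are described without a test because each stage is a table of its own. The mean was highest at L3 for 28 of the 38 members, and for 17 of these every L3 sample lay above every embryo and L1 sample. The known regulators pals-16, pals-17, pals-22 and pals-25 were among these 17, while pals-20 had its highest mean at L3 with L3 samples that overlapped L1. pals-17 read 12.4, 14 and 12.8 FPKM in the embryo samples, 18, 14.2, 15.4 and 17.9 at L1 and 43.1, 39.6, 44.1 and 50.9 at L3. pals-22 read 15.4, 15.1 and 20.8 in embryos, 13.3, 10.4, 12.1 and 11.3 at L1 and 31.9, 32.2, 27.1 and 29.4 at L3, so its lowest stage was L1, and no L3 sample overlapped the other stages. pals-25 read 8.09, 8.74 and 10.6, 12, 11.7, 15 and 13.2 and 20.5, 17.6, 18.3 and 20.2 in the same order, with no overlap between any of the 3 stages on the FPKM scale (divided by the upper quartile of its library, pals-25 was instead about level between L1, at 0.676, and L3, at 0.656, with overlap). The level of the activator against that of the repressor was highest at L1, with no overlap with the other stages. The ratio of pals-25 to pals-22 was 1.11 ± 0.15 (SD, n = 4) at L1, 0.537 ± 0.037 (n = 3) in embryos and 0.638 ± 0.064 (n = 4) at L3. This ratio is taken within a sample and does not depend on how a table was scaled.

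A few members had another order. pals-34 was an embryo gene in these samples, with 8.26, 8.67 and 8.43 FPKM in embryos, 1.06, 1.2, 1.16 and 0.676 at L1 and 2.55, 3.64, 3.07 and 2.54 at L3. pals-26 read 3.76, 4.06 and 5.71 in embryos and at most 2.94 in any larval sample of the double mutant. pals-18 peaked at L1, with 6.18, 5.1, 5.63 and 5.63 against 0.506, 0.512 and 0.706 in embryos and 1.9, 2.24, 2.5 and 1.9 at L3. None of these 3 peaks overlapped the other stages. The 5 highest members were pals-24, pals-22, pals-17, pals-23 and pals-25 in embryos, pals-24, pals-23, pals-17, pals-19 and pals-25 at L1, and pals-24, pals-17, pals-22, pals-23 and pals-25 at L3. The upper quartile of all genes was 25.3 to 25.4 FPKM in the embryo samples, 19.1 to 19.3 at L1 and 28.9 to 29.4 at L3. With each library divided by its own upper quartile, L3 was the highest stage for 20 members and L1 for 16, instead of 28 and 8. The L3 peak was then free of overlap for 10 members instead of 17, and that of pals-24 was not. pals-26 and pals-34 kept their embryo peak and pals-16, pals-17 and pals-22 their L3 peak without overlap. The embryo samples also held 3347 to 5437 FPKM summed over 6 vitellogenin and sperm genes, against at most 2.67 at L1 and 1.63 at L3 in the double mutant. Their part in the embryo levels was not tested.

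**Figure D2:**
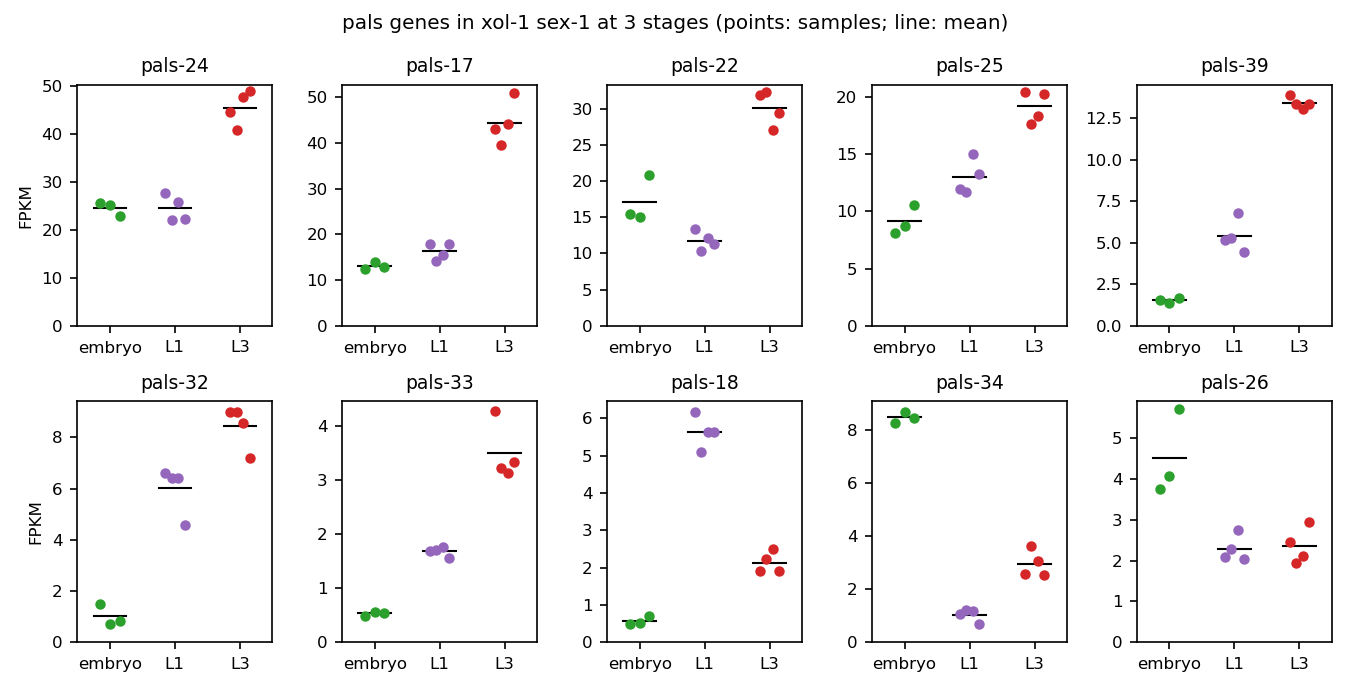
FPKM of 10 pals genes in the double mutant samples at the early embryo (3 points), L1 (4 points) and L3 (4 points) stages, with a line at the mean; each stage comes from a separate table. pals-17 and pals-24 stand highest at L3, pals-18 at L1, and pals-34 and pals-26 in embryos.

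At L3 the double mutant was compared with the single mutant, which shares its xol-1 allele and lacks the labelled sex-1 allele. Many pals genes were higher in the double mutant, and 1, the repressor pals-22, was lower by a small margin. On the log2(FPKM + 1) scale pals-33, pals-27 and pals-28 led. By the ratio of means, among members with signal in xol-1, pals-28 (6.51), pals-29 (5.41) and pals-33 (5.25) led. Over all 38 members, 18 rose and 1 fell when no gene was left out for a low level, where 18.8% of 20381 genes rose and 16.9% fell (limma on log2(FPKM + 1), Benjamini-Hochberg adjusted p under 0.05). The 4 samples of one genotype did not overlap the 4 of the other for 16 members in the higher and 1 in the lower direction, beside 17.5% and 15.7% of those genes. With genes under a mean of 1 FPKM over the 12 L3 samples left out, which is the fit used below unless stated, 22 members remained, of which 13 rose and 1 fell. In that fit 22.9% of 13502 genes rose and 26.3% fell. The median difference was 0.49 over the 22 members and -0.02 over all genes tested. The 16 members left out included pals-28, which reached 1.88 FPKM in the double mutant, and pals-9, at 1.29 in wild type. pals-4 and pals-33 passed the filter only through the double mutant, so the unfiltered counts over all 38 are the ones to read.

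Among the regulators, the repressor pals-22 (WBGene00016216, III 132418 to 134401) read 36, 36.5, 33.5 and 37.4 FPKM in wild type, 33.1, 33.2, 34.5 and 37.9 in the single mutant and 31.9, 32.2, 27.1 and 29.4 in the double mutant. Each double mutant sample lay below each of the other 8. The difference from xol-1 was -0.20 on the log2(FPKM + 1) scale (SE 0.07, adjusted p = 0.0284), and the exact permutation test on FPKM (two-sided) gave p = 0.0286, the smallest that 4 against 4 samples allow. The call did not hold when columns were scaled to a common sum (-0.10, adjusted p = 0.233), nor in a fit of these 2 genotypes alone (adjusted p = 0.0541). It was also lost without xol-1 replicate 4 (-0.16, adjusted p = 0.0891), without double mutant replicate 3 (-0.15, 0.0904) or without double mutant replicate 4 (-0.19, 0.068). The neighbouring activator pals-25 (WBGene00020540, III 134494 to 137975) read 21, 23.9, 23.6 and 25 in wild type, 21.8, 18.6, 22.2 and 22.9 in the single mutant and 20.5, 17.6, 18.3 and 20.2 in the double mutant. Both mutants overlapped, with a difference of -0.15 (SE 0.08, adjusted p = 0.14; exact permutation p = 0.114), which passed the threshold only without xol-1 replicate 2 (-0.21, adjusted p = 0.0331). The ratio of pals-25 to pals-22 was 0.653 ± 0.050 in wild type, 0.616 ± 0.044 in the single mutant and 0.638 ± 0.064 in the double mutant (SD, n = 4 each), and its ranges overlapped in all 3 genotypes.

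The second known repressor, pals-17 (WBGene00022346, III 1390450 to 1391852), read 38.5, 43.9, 58.9 and 50.3 FPKM in the single mutant and 43.1, 39.6, 44.1 and 50.9 in the double mutant. These overlapped, with a difference of -0.10 (SE 0.12, adjusted p = 0.518), whose sign turned to 0.01 under a common column sum and without xol-1 replicate 3. The activator pals-16 read 8.03, 8.5, 8.24 and 8.45 and 8.59, 8.54, 7.28 and 7.34, a difference of -0.06 (adjusted p = 0.577) that was 0.03 under a common column sum. The activator pals-20 was below the filter, with 0.035, 0.193, 0.288 and 0.12 in wild type, 0.242, 0.496, 0.389 and 0.274 in the single mutant and 0.447, 0.861, 0.381 and 0.528 in the double mutant, and the mutants overlapped (unfiltered 0.20, adjusted p = 0.159). None of the 7 genes in the cluster of pals-17, pals-16 and pals-20 passed in this comparison, 4 of which were above the filter. pals-19 in that cluster differed by 0.03 (adjusted p = 0.836) and pals-18 by 0.22 (adjusted p = 0.0921).

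The reporter gene pals-5 (WBGene00007659, I 13130813 to 13132466) was low in all samples, at 0.368, 0.237, 0.293 and 0.209 FPKM in wild type, 0.238, 0.236, 0.238 and 0.309 in the single mutant and 0.569, 0.443, 0.556 and 0.603 in the double mutant. All 4 double mutant samples lay above the other 8. The mean was 2.13 times that of xol-1, an unfiltered difference of 0.30 (SE 0.06, adjusted p = 0.00177; exact permutation p = 0.0286). The depth behind this is small: about 30.8 fragments over the 4 xol-1 libraries and 57.7 over the 4 double mutant libraries.

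pals-33 (WBGene00021081, V 3673380 to 3676632), a member that stands alone on chromosome V, had the largest difference in log2(FPKM + 1) of the 22 members above the filter. It read 0.777, 0.804, 0.724 and 1.07 FPKM in wild type, 0.71, 0.683, 0.482 and 0.787 in the single mutant and 4.28, 3.23, 3.14 and 3.34 in the double mutant. The double mutant mean of 3.5 ± 0.528 (SD, n = 4) was 5.25 times the xol-1 mean. On the log2(FPKM + 1) scale, which understates the change of low genes, the difference was 1.43 (SE 0.12, adjusted p = 1.72e-06). pals-33 was above the filter only through the double mutant, and its unfiltered adjusted p was 2.73e-06. The lowest double mutant sample, at 3.14, stood clear of the highest of the other 8, at 1.07.

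The 3 genes at III 4375154 to 4387757 were all higher in the double mutant. pals-27 (WBGene00007132, III 4381643 to 4384166) read 1.95, 1.45, 1.99 and 1.25 in wild type, 1.04, 1.19, 1.33 and 1.12 in the single mutant and 5.33, 3.46, 3.91 and 5.15 in the double mutant, a difference of 1.32 (SE 0.14, adjusted p = 1.22e-05). Its neighbour pals-28 (WBGene00007134, III 4384787 to 4387757) read 0.182, 0.289, 0.283 and 0.237, 0.315, 0.201, 0.231 and 0.41 and 2.21, 1.66, 1.58 and 2.08 in the same order, 6.51 times higher in the mean (unfiltered 1.16, SE 0.09, adjusted p = 4.07e-06). For both genes the double mutant samples stood clear of all others. pals-26 (WBGene00007131, III 4375154 to 4378907) read 1.21, 1.55, 1.45 and 1.27 in the single mutant and 2.46, 1.95, 2.11 and 2.94 in the double mutant, a smaller difference of 0.50 (SE 0.12, adjusted p = 0.00432). The ratio of pals-27 to pals-26 within a sample was 1.26 ± 0.29 in wild type, 0.855 ± 0.063 in the single mutant and 1.89 ± 0.19 in the double mutant (SD, n = 4 each). pals-29 (WBGene00012091, IV 14539685 to 14542617) on chromosome IV read 0.236, 0.13, 0.255 and 0.241, 0.183, 0.0604, 0.26 and 0.159 and 1.18, 0.648, 0.828 and 0.928 in the 3 genotypes, 5.41 times higher than in xol-1 (unfiltered 0.70, SE 0.09, adjusted p = 9.24e-05), and its genome neighbour pals-30 did not pass (unfiltered 0.28, adjusted p = 0.0578).

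In the chromosome I cluster the double mutant mean was above the xol-1 mean for all 14 members. 7 of the 14 rose without a filter, where 18.8% of all genes did. All 4 above the filter rose, beside 22.9% of all genes tested, but pals-4 was above it only through the double mutant. pals-14 (WBGene00009061, I 13139122 to 13141898) read 3.09, 2.64, 3.9 and 3.13 in wild type, 2.47, 1.94, 2.56 and 2.93 in the single mutant and 5.27, 4.22, 5.03 and 5.55 in the double mutant, a difference of 0.79 (SE 0.12, adjusted p = 0.000238). Its double mutant samples lay above the other 8. pals-4 (WBGene00007658, I 13113487 to 13116434) read 0.493, 0.575, 0.483 and 0.841, 0.661, 0.842, 0.938 and 0.89 and 2.54, 1.46, 1.46 and 1.93, again with no overlap (0.62, SE 0.14, adjusted p = 0.00253). pals-2 differed by 0.61 (adjusted p = 0.00208) and pals-6 by 0.42 (adjusted p = 0.00619). The double mutant samples of both overlapped those of wild type. pals-3 rose to 0.804, 0.501, 0.451 and 0.865 from 0.138, 0.342, 0 and 0.119 (unfiltered 0.52, adjusted p = 0.00259), and it overlaps pals-12 on the same strand and pals-4 on the other. pals-12 itself read 0.161, 0.20, 0.302 and 0.289 in the double mutant and was listed at 0 elsewhere at L3, on about 27.4 fragments in all, and it is counted among the 7 that rose against groups with no signal. The other 7 members of the cluster had an unfiltered adjusted p of 0.172 or more.

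Beside pals-22 and pals-25, the other members of their cluster went the other way. pals-24 (WBGene00016219, III 120435 to 124690) read 35.7, 29, 35.2 and 40.2 in wild type, 25.8, 22.5, 33.8 and 32.7 in the single mutant and 44.5, 40.8, 47.6 and 48.9 in the double mutant, and pals-23 (WBGene00016218, III 124778 to 127971) read 18.5, 15.6, 21 and 18.3, 14.6, 14.7, 16.53 and 16.8 and 23.3, 22.1, 25.2 and 26.8. For both, the double mutant samples lay above the other 8. The difference from xol-1 was 0.66 for pals-24 (SE 0.13, adjusted p = 0.00103) and 0.60 for pals-23 (SE 0.09, adjusted p = 0.000195). Within a sample pals-23 kept close to the same share of pals-24, at a ratio of 0.527 ± 0.058 in wild type, 0.556 ± 0.073 in the single mutant and 0.536 ± 0.011 in the double mutant (SD, n = 4 each).

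On chromosome V, pals-37 (WBGene00138721, V 12437440 to 12441520) read 3.72, 4.47, 4.83 and 4.52 in the single mutant and 8.29, 8.2, 7.55 and 8.61 in the double mutant, a difference of 0.77 (SE 0.10, adjusted p = 7.03e-05). Its neighbours pals-39 (0.49, adjusted p = 0.0021) and pals-38 (0.49, adjusted p = 0.013) also rose, so that all 3 genes of this cluster passed. For pals-38 the samples of the mutants overlapped. pals-34 rose by 0.51 (adjusted p = 0.0213), with 1.53, 1.64, 2.58 and 1.4201 in the single mutant and 2.55, 3.64, 3.07 and 2.54 in the double mutant. These groups overlapped, and the call was lost without xol-1 replicate 1 (0.47, adjusted p = 0.0547), xol-1 replicate 4 (0.45, 0.0611) or double mutant replicate 2 (0.43, 0.0614). pals-1 (-0.01, adjusted p = 0.98), pals-31 (0.16, 0.562) and pals-32 (-0.23, 0.0756) did not pass.

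**Figure D3:**
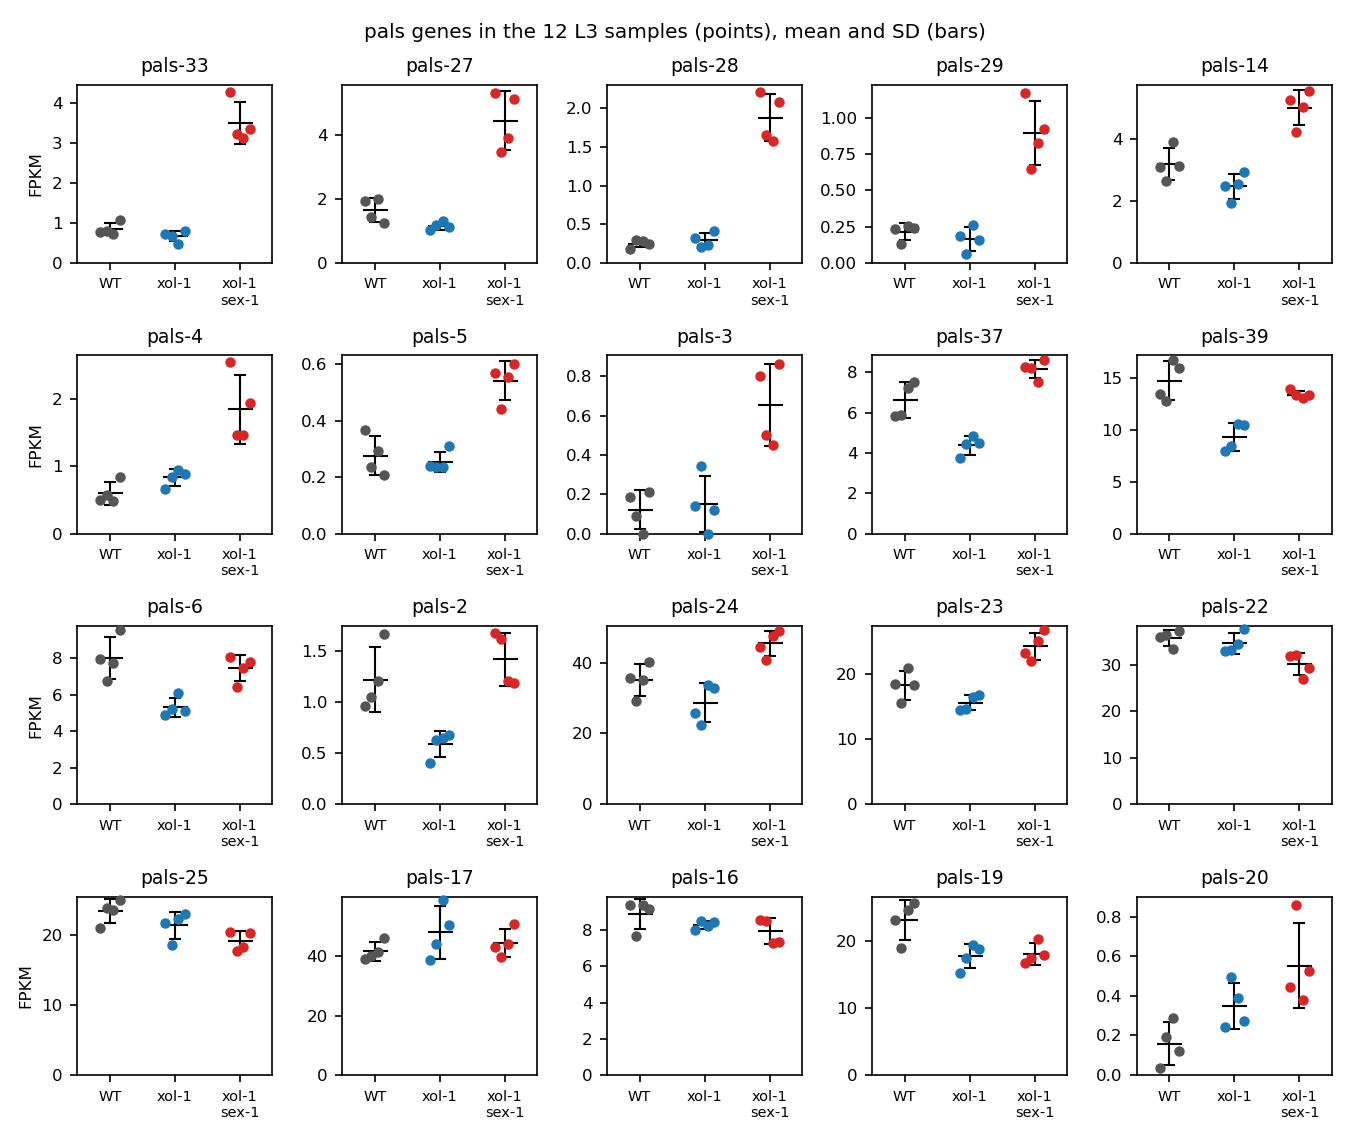
FPKM of 20 pals genes in the 12 L3 samples (points) with the mean and SD of each genotype (bars, n = 4). In pals-33, pals-27, pals-28 and pals-29 the double mutant samples stand apart from the other 8, in pals-39, pals-6 and pals-2 the xol-1 samples are the low ones, and pals-22 is lowest in the double mutant.

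Against wild type, the xol-1 single mutant had fewer and smaller pals differences, and most of those that passed were decreases. 1 member rose and 6 fell among the 22 above the filter, where 16% of all genes tested rose and 14.7% fell. Without a filter 1 rose and 7 fell of 38, beside 9.86% and 9.18% of genes. The samples of the 2 genotypes did not overlap for 1 member in the higher and 5 in the lower direction, beside 10.7% and 10.5%. The median difference was -0.16 over the 22 members and near 0 (-0.001) over all genes tested.

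The members that fell were spread over several clusters. pals-39 (WBGene00008301, V 12441663 to 12443854) read 13.5, 12.8, 16.8 and 16 in wild type and 8.0, 8.4, 10.5 and 10.5 in xol-1, a difference of -0.61 (SE 0.10, adjusted p = 0.000734), and 13.9, 13.3, 13.1 and 13.4 in the double mutant. pals-37 beside it read 5.82, 5.89, 7.24 and 7.54 in wild type and fell by 0.50 in xol-1 (SE 0.10, adjusted p = 0.00242). In the chromosome I cluster, pals-6 (WBGene00007660, I 13136390 to 13138544) read 7.99, 6.78, 7.73 and 9.55 in wild type, 4.91, 5.21, 6.1 and 5.11 in the single mutant and 8.09, 6.45, 7.48 and 7.81 in the double mutant (-0.51 for xol-1 against wild type, SE 0.11, adjusted p = 0.00317). pals-2 (WBGene00007656, I 13104251 to 13106465) read 0.958, 1.05, 1.2 and 1.67, 0.402, 0.626, 0.645 and 0.674 and 1.67, 1.61, 1.2 and 1.19 (-0.48, SE 0.13, adjusted p = 0.0138). For these 4 genes no xol-1 sample reached the lowest wild-type sample. pals-9 (WBGene00044237, I 13133648 to 13136156), below the filter, did the same, with 1.19, 1.22, 1.33 and 1.43 in wild type, 0.609, 0.552, 1.02 and 0.76 in the single mutant and 0.745, 0.615, 0.669 and 0.988 in the double mutant (unfiltered -0.41, adjusted p = 0.0148), and unlike pals-6 and pals-2 its double mutant values lay within the range of the xol-1 samples.

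pals-34 (WBGene00017823, V 7955404 to 7956497) read 3.76, 2.9, 3.42 and 2.07 in wild type (-0.53, adjusted p = 0.0266) and overlapped xol-1. Its call was lost without wild-type replicate 1 (-0.45, adjusted p = 0.0738), wild-type replicate 3 (-0.48, 0.0747), xol-1 replicate 1 (-0.49, 0.0697) or xol-1 replicate 4 (-0.47, 0.0783). pals-19 (WBGene00044761, III 1401940 to 1403460) read 23.1, 19, 24.8 and 25.8 in wild type and 15.3, 17.5, 19.4 and 18.8 in xol-1 (-0.36, adjusted p = 0.017), also with overlap. Its call was lost without wild-type replicate 3 (-0.33, adjusted p = 0.0526), wild-type replicate 4 (-0.31, 0.0552) or xol-1 replicate 1 (-0.29, 0.0544). pals-1 (WBGene00008858, I 11579856 to 11581989) was the 1 member that rose, with 0.832, 0.479, 0.545 and 0.454 in wild type, 1.28, 0.839, 1.17 and 1.75 in the single mutant and 1.05, 1.26, 1.49 and 1.13 in the double mutant (0.51, SE 0.14, adjusted p = 0.0136). Every mutant sample of it lay above every wild-type sample, since the lowest mutant value was 0.839 and the highest wild-type value was 0.832. Among the regulators, pals-22 (-0.05, adjusted p = 0.645; exact permutation p = 0.429) and pals-25 (-0.13, adjusted p = 0.26; exact permutation p = 0.2) did not pass here. pals-17 (0.18, adjusted p = 0.252) and pals-16 (-0.09, adjusted p = 0.482) did not either.

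The count in this comparison moved with the scaling. With columns scaled to a common sum, the median of all genes moved to -0.12, 11 members fell in place of 6 and the same 1 rose, with all 7 earlier calls among them. Under that scaling 27% of 13505 genes fell and 9.71% rose, so the share of all genes that fell went up as well. pals-22 then read -0.18 (adjusted p = 0.0422) and pals-25 -0.25 (adjusted p = 0.0446).

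The double mutant differed from wild type in 13 members above the filter, of which 10 rose and 3 fell, beside 25.2% and 28.1% of all genes tested. Without a filter 15 rose and 4 fell of 38, beside 21% and 18.8%, and the samples did not overlap for 15 members in the higher and 3 in the lower direction, beside 19.9% and 18.2%. The median was 0.11 over the 22 members and -0.03 over all genes. This comparison uses the same samples as the other two, so it adds no independent count.

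On the log2(FPKM + 1) scale the widest differences from wild type were again in pals-33 (1.28, SE 0.12, adjusted p = 2.71e-06) and pals-27 (1.03, SE 0.14, adjusted p = 5.61e-05). Without the filter pals-28 (1.20, adjusted p = 2.24e-06) was among them. pals-4 (0.82), pals-14 (0.53), pals-26 (0.52), pals-1 (0.50), pals-23 (0.39) and pals-24 (0.37) also rose. Of these, pals-33 and pals-4 were above the filter only through the double mutant, with unfiltered adjusted p of 3.94e-06 and 0.000297. The 3 that fell were pals-19 (-0.33, adjusted p = 0.0151), the activator pals-25 (-0.27, adjusted p = 0.0112; exact permutation p = 0.0286) and the repressor pals-22 (-0.24, adjusted p = 0.00864; exact permutation p = 0.0286). pals-20, below the filter, rose from 0.159 to 0.554 FPKM in the mean with no overlap (unfiltered 0.42, adjusted p = 0.00604), on about 15.4 and 51.1 fragments. pals-5 (unfiltered 0.27, adjusted p = 0.00235), pals-29 (0.63, 0.000124) and pals-3 (0.56, 0.0014) rose in the unfiltered fit. pals-39 (-0.12, adjusted p = 0.344), pals-6 (-0.09, 0.518), pals-2 (0.13, 0.426) and pals-34 (-0.02, 0.922), all low in the single mutant, did not differ beyond the threshold between the double mutant and wild type.

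3 of these calls against wild type were lost when single libraries were left out, and those of pals-37 (0.25, adjusted p = 0.0753) and pals-38 (0.34, 0.0652) also with columns scaled to a common sum. pals-24 lost its call without wild-type replicate 2 (0.29, adjusted p = 0.0797), double mutant replicate 3 (0.35, 0.0584) or double mutant replicate 4 (0.34, 0.0674). pals-37 (0.27, adjusted p = 0.0381) lost it without wild-type replicates 1 (0.22, 0.107) or 2 (0.23, 0.104) and without double mutant replicates 1 (0.26, 0.0734), 2 (0.27, 0.0675) or 4 (0.25, 0.093). pals-38 (0.36) sat on the threshold itself, with an adjusted p that rounds to 0.05, and lost the call in 6 of the 8 runs that left out 1 library, with adjusted p up to 0.117.

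**Figure D4:**
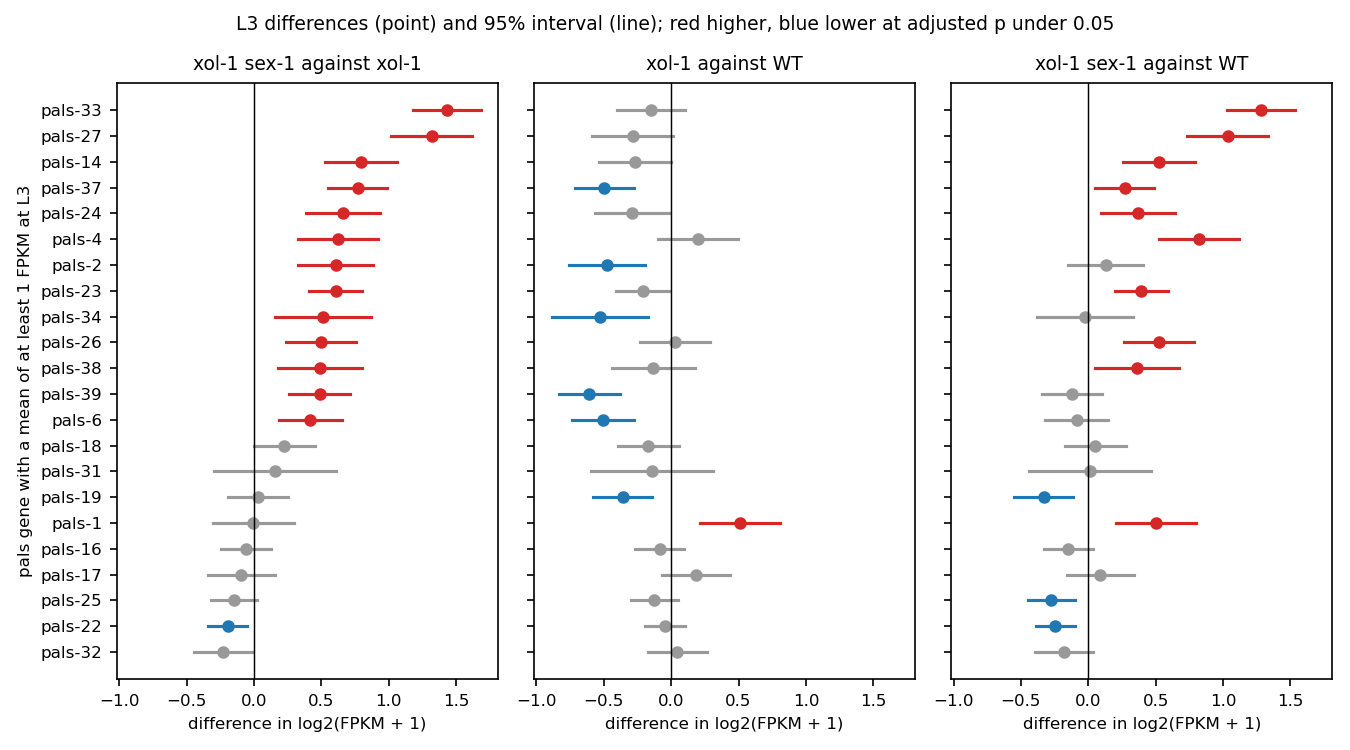
Difference in log2(FPKM + 1) at L3 with its 95% interval for the 22 pals genes above the filter, in the 3 genotype comparisons; red marks genes higher and blue genes lower at an adjusted p under 0.05. The left panel holds 13 red and 1 blue gene, the middle panel 1 red and 6 blue, and the right panel 10 red and 3 blue.

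Other genes of the intracellular pathogen response moved in part with the pals genes. Of 16 listed genes outside the family, 12 were above the filter, and in the double mutant against the single mutant 5 of them rose and 1 fell, with a median of 0.14, beside 22.9% and 26.3% of all genes tested. Without a filter 7 of the 16 rose and 1 fell, beside 18.8% and 16.9%. ddn-1 (B0507.10) read 2.9, 1.93, 2.89 and 2.49 in wild type, 3.06, 3.11, 3.4 and 3.78 in the single mutant and 9.65, 7.74, 8.63 and 9.73 in the double mutant (1.19, SE 0.12, adjusted p = 6.75e-06), with the double mutant clear of the other 8 samples. B0507.8 (1.16, adjusted p = 1.21e-05) and B0507.6 (1.08, adjusted p = 1.99e-05) of the same cosmid rose as well. Of the ubiquitin ligase genes, the cullin gene cul-6 read 11.3, 11.8, 12.5 and 14, 13.1, 12.5, 13.2 and 14.1 and 26.5, 16.3, 17.8 and 23.6 in the 3 genotypes (0.61, SE 0.13, adjusted p = 0.0019), and the F-box gene fbxa-158 rose by 0.49 (adjusted p = 0.00272). The RING subunit gene rcs-1 went the other way, with 118, 131, 125 and 137 in wild type, 102, 118.5, 118.9 and 116 in the single mutant and 94.9, 88.7, 88.6 and 85 in the double mutant (-0.35, adjusted p = 0.000978). The Skp1-related genes skr-3 (-0.07, adjusted p = 0.567), skr-4 (0.00, 0.992) and skr-5 (-0.08, 0.631) did not pass. In xol-1 against wild type skr-4 rose (0.43, adjusted p = 0.00264) and fbxa-158 (-0.68, 0.000441) and B0507.6 (-0.46, 0.0115) fell. Of all genes tested, 16% rose and 14.7% fell there. In the double mutant against wild type 5 of the 12 rose and 1 fell, beside 25.2% and 28.1% of all genes tested. Those were ddn-1 (1.49), B0507.8 (1.26), cul-6 (0.70), B0507.6 (0.62) and skr-4 (0.43) against rcs-1 (-0.51).

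Of 7 listed upstream regulators outside the family, all above the filter, 1 rose and none of the 7 fell in the double mutant against the single mutant, beside 22.9% and 26.3% of all genes tested. The 1 that rose was drh-1, a RIG-I-like sensor of viral RNA, with 16.8, 15.3, 15.5 and 14.6 in the single mutant and 17.2, 18.3, 19.2 and 16.6 in the double mutant (0.19, adjusted p = 0.034) and overlapping samples. The bZIP factor gene zip-1 differed by 0.08 (adjusted p = 0.732). The repressor gene pnp-1, a purine nucleoside phosphorylase, varied from 11.5 to 28.6 FPKM among double mutant samples and from 21.3 to 38.4 among xol-1 samples, so its difference of -0.50 (SE 0.42, adjusted p = 0.351) was not resolved. The STAT gene sta-1 fell in xol-1 against wild type (-0.25, adjusted p = 0.0162) and in the double mutant against wild type (-0.25, 0.00897), and drh-1 rose in the latter (0.27, 0.00411). Of the chitinase-like genes known from the response to oomycetes, 6 of 9 were tested. In the double mutant against the single mutant, chil-24 (0.73, adjusted p = 0.00036), chil-23 (0.43, 0.0173) and chil-18 (0.37, 0.048) rose, while chil-22 fell (-0.64, 0.0045). Of all genes tested, 22.9% rose and 26.3% fell. The chil-18 samples of the mutants overlapped. Without a filter 2 of the 8 matched genes rose and 1 fell, beside 18.8% and 16.9%. None of the 6 passed in xol-1 against wild type, where 16% of all genes tested rose and 14.7% fell. In the double mutant against wild type chil-24 (0.70) rose and chil-22 (-0.62) fell, beside 25.2% and 28.1% of all genes tested.

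Heat and proteostasis genes, which act in protein folding and turnover, were higher in the double mutant almost throughout. Of 15 tested, 14 rose and 1 fell in the double mutant against the single mutant, with a median of 1.07, beside 22.9% and 26.3% of all genes tested. hsp-70 and hsp-12.6 were above the filter only through the double mutant, and without a filter the counts were the same, 14 and 1, with hsp-16.1 left out as it has no signal. The inducible small heat shock gene hsp-16.2 read 10.6, 13.2, 10.3 and 7.6 in the single mutant and 149, 79.8, 108 and 169 in the double mutant (3.44, SE 0.21, adjusted p = 2.77e-07). hsp-16.41 (3.35), hsp-16.48 (3.01) and the inducible chaperone genes F44E5.5 (3.10), F44E5.4 (2.78) and hsp-70 (1.72) followed, as did hsp-12.6 (1.49). Signal is uncertain between the similar copies in this list, and hsp-16.1 was listed at 0 in every sample. aip-1, a proteasome-associated gene, rose by 1.07 (adjusted p = 1.44e-05), while the ubiquitin fusion gene ubq-2 was the 1 that fell (-0.23, adjusted p = 0.0119). In xol-1 against wild type 4 rose and none of the 15 fell, with a median of -0.03, beside 16% and 14.7% of all genes tested. The hsp-16 genes were not among the 4 (hsp-1, hsp-110, dnj-13 and ubq-2). In the double mutant against wild type all 15 rose, with a median of 1.04, beside 25.2% of all genes tested.

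**Figure D5:**
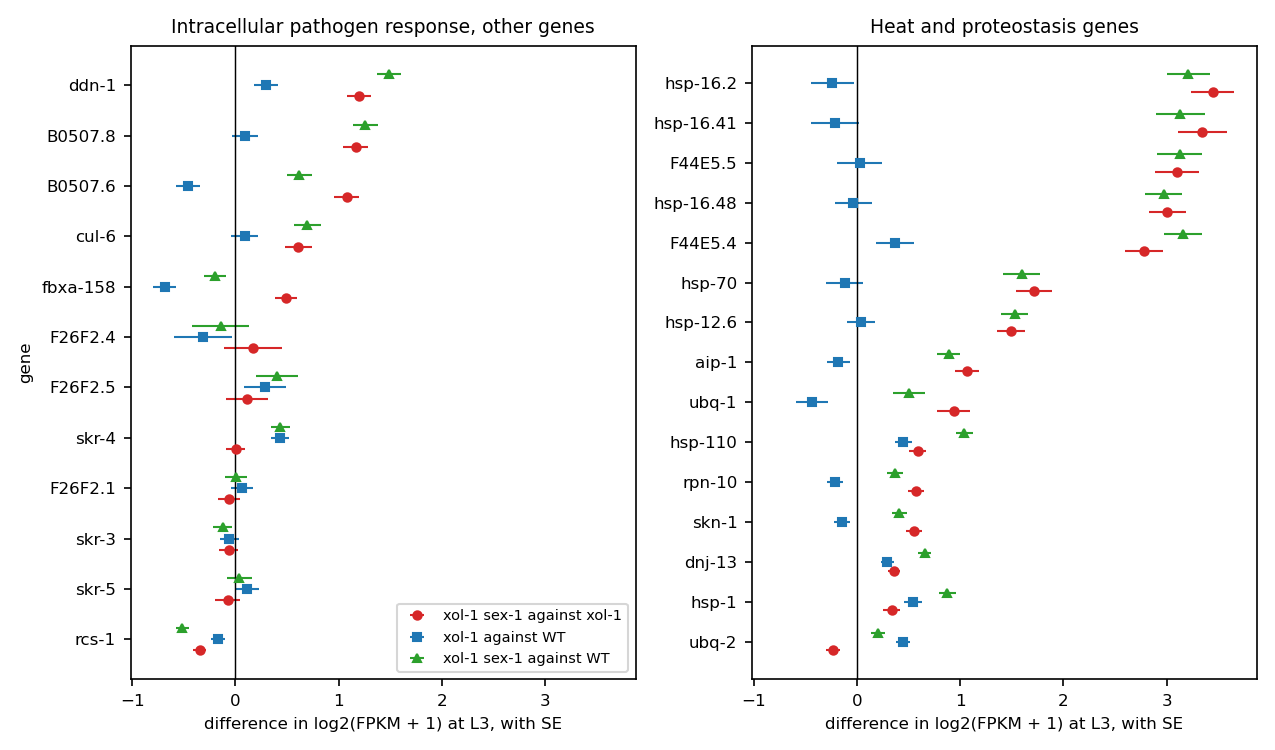
Difference in log2(FPKM + 1) at L3 with its SE for the tested genes of the intracellular pathogen response outside the pals family (left) and of heat and proteostasis (right), in the 3 genotype comparisons. ddn-1, B0507.8 and B0507.6 lead on the left at 1.08 to 1.19 in the double mutant against the single mutant, and the hsp-16 genes and F44E5.5 on the right at 3.01 to 3.44.

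Markers of other tissues also differed between the genotypes. In the double mutant against the single mutant, where 22.9% of all genes tested rose and 26.3% fell, 6 of 7 tested intestinal markers rose (5 of 8 without a filter). elt-2 (0.19), act-5 (0.27) and elt-7 (0.29) rose least, and mtl-2 went down without passing (-0.40, adjusted p = 0.0519). The 8 listed summed to 3405 to 3550 FPKM in wild type, 3672 to 4547 in the single mutant and 5564 to 7131 in the double mutant. The largest part was asp-1, with means of 1506, 1993 and 3683 in wild type, the single mutant and the double mutant. Of 4 body muscle markers 3 rose, with sums of 714 to 822, 600.4 to 888 and 1120 to 1347 in the same order. Germline markers were low, with sums of 7.65 to 11.9, 10.9 to 15.9 and 23.5 to 29.3 over 7 genes, and 3 of 5 tested rose. The epidermal markers summed to 3344 to 4438 in wild type, 1972 to 2585 in the single mutant and 2679 to 3067 in the double mutant, and elt-3 was listed at 0 in all L3 samples. Of 5 neuronal markers 1 rose and 2 fell in the double mutant against the single mutant. Early embryo markers summed to at most 4.08 FPKM at L3, beside 713 to 832 in the embryo samples. The part of these tissue differences in the pals levels was not tested.

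Genes that lie between the pals genes in the clusters did not all follow them. In the chromosome I cluster Y26D4A.21 rose in the double mutant against the single mutant (0.71, adjusted p = 0.00883), while C17H1.2, which overlaps pals-13, did not pass (0.07, 0.781). Between the genes of the pals-22 cluster nhr-280 rose (0.61, adjusted p = 0.0377), and C29F9.2 fell in xol-1 against wild type (-0.78, adjusted p = 0.000713). In the pals-26 cluster B0284.3 rose in the double mutant against the single mutant (0.21, adjusted p = 0.0323) and fell in xol-1 against wild type (-0.43, adjusted p = 0.000861). None of the 3 interleaved genes tested in the cluster of pals-17 passed in any of the 3 comparisons, and neither did pals-17 and pals-16 there. pals-19 of that cluster fell in xol-1 (-0.36, adjusted p = 0.017) and in the double mutant (-0.33, 0.0151) against wild type. pals-20 rose in the double mutant against wild type (unfiltered 0.42, adjusted p = 0.00604).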

How the data were processed

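Expression was deposited by the authors as FPKM, in a separate table for each of the 3 stages. The submitters' processing notes name cutadapt 2.3, FastQC 0.11.8, Salmon 1.9.0, DESeq2 1.42.0 and the build WBcel235, with no role or order. How the FPKM were scaled between samples is not given in the sources used here. A median-of-ratios factor computed from the L3 columns was the same, 1.004, in every library, so these columns already stood on a common median-of-ratios scale. Columns were matched to samples by name, and 13 further columns of the embryo and L1 tables belong to no sample of this series and were not used. Gene names and positions came from Ensembl release 115 of WBcel235, which all 21975 identifiers matched.

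FPKM are not counts, so no count test was used. L3 samples were compared with limma 3.58.1 (R 4.3.3, statmod 1.5.0; trend and robust eBayes), applied to log2(FPKM + 1), a scale that understates the change of low genes. Genes with a mean under 1 FPKM over the 12 L3 samples were left out, and the spread was estimated over all 12 samples together. The two-sided p-values were Benjamini-Hochberg adjusted over all 13502 genes with a threshold of 0.05. Adjusted p-values called unfiltered come from the same fit over all genes above 0 in an L3 sample. Fragments per FPKM were read from the steps between the lowest values of genes with 1 transcript of at least 1000 bases, and cover counting error only. The fit was tested on simulated data. Levels and counts were computed with Python 3.11.15, numpy 2.4.6, scipy 1.17.1 and pandas 2.3.3, with matplotlib 3.10.9 for plots.

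The titles number the L3 replicates 1 to 4 in each genotype, and the labels do not say that a number marks a shared batch or culture. Deviations of same-numbered samples from their group means correlated by 0.10, -0.03 and 0.02 on average in the 3 pairs of genotypes. Such correlations cannot exclude shared batches, and the main fit used no block. Alternatives were other pseudocounts, filters and scalings, a fit to the compared genotypes alone, eBayes with neither trend nor robust, the replicate block and leaving out each L3 replicate. The members, the gene lists and the tests were chosen with earlier results of these data known. The members named are those with an adjusted p under 0.05 in any L3 comparison, the known regulators and the reporter, and the 5 highest at each stage. Others are named with their clusters, and of a list the genes past the threshold are named, at most 8, with a few that did not pass named after their values were seen. chil-28, hsp-16.11, hsp-16.49 and daf-21 of the lists were not matched and were not analysed here. Protein and promoter sequences were not analysed here.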

Additional observations from a re-analysis of the deposited data

Results flagged for a closer look

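In 8 of 148 sets of 4 samples of a pals gene in a genotype and stage, 1 sample stood far from the other 3, by a rule that chance alone meets in about 1 in 20 sets. In wild type at L3, replicate 2 had 7.68 FPKM of pals-16, below 9.17 to 9.39 in the others, and 0.13 of pals-29, below 0.236 to 0.255. In xol-1 at L3, replicate 2 had 0.47 of pals-21 above 0.1 to 0.157, replicate 3 had 0.125 of pals-11 where the others were listed at 0, and replicate 4 had 0.309 of pals-5 above 0.236 to 0.238. In xol-1 sex-1 at L1, replicate 3 had 23.9 of pals-23 above 19.6 to 20.2, and replicate 4 had 4.59 of pals-32 below 6.42 to 6.62 and 0.414 of pals-12 where the others were listed at 0. None of these 8 was in an L3 sample of the double mutant.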

How the results depend on the processing

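Of 43 results for single members, 31 kept their direction and side of the threshold under every alternative run. With a mean of at least 5 FPKM required, the members called fell to 6 from 14 in the double against the single mutant, to 4 from 7 in xol-1 against wild type and to 6 from 13 in the double mutant against wild type, and the other pathogen response genes to 3 from 6 in each comparison with the double mutant, because fewer genes were tested. With a common column sum, 12 members were called in xol-1 against wild type. Leaving out 1 replicate gave 12 to 15, 5 to 9 and 10 to 13 members in the 3 comparisons (in the order above), and 6 to 6, 3 to 4 and 6 to 7 pathogen response genes. pals-17 in the double against the single mutant turned to 0.007085 with a common column sum and ran from -0.1925 to 0.007485 when 1 replicate was left out (the latter without xol-1 replicate 3), and pals-16 to 0.03188 with a common column sum. pals-38 in the double mutant against wild type was not called with a pseudocount of 0.1 (adjusted p = 0.0651) or 0.5 (0.0563), with no filter (0.0599) or with a common column sum (0.0652). The cause of these changes was not tested. With the replicate number as a block, 14, 9 and 13 members were called in the 3 comparisons and none of the 43 results changed. In that run pals-23 (-0.21, adjusted p = 0.0379) and pals-24 (-0.29, 0.0151) became lower calls in xol-1 against wild type (0.0989 and 0.104 without the block). The share of all genes called with the 5 FPKM filter, the block or 1 replicate left out is not given here. Changes in these counts are therefore not read as results about the members. Whether the numbers pair the samples is not stated, and correlations of -0.18 to 0.24 between same-numbered samples cannot decide it. Low members rest on few fragments: at L3, 3 fragments stood for 0.0322 to 0.0539 FPKM of pals-26 and for 0.316 to 0.529 of the short pals-10.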

Other observations

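The double mutant L3 samples were not alike in their heat genes. hsp-16.2 read 149, 79.8, 108 and 169 FPKM, hsp-16.41 145, 59.6, 83.5 and 126 and hsp-70 5.9, 2.83, 3.93 and 5.71 in replicates 1 to 4. Among the pals genes, pals-27 read 5.33, 3.46, 3.91 and 5.15, pals-28 2.21, 1.66, 1.58 and 2.08, pals-33 4.28, 3.23, 3.14 and 3.34 and pals-29 1.18, 0.648, 0.828 and 0.928 in the same replicates, and cul-6 read 26.5, 16.3, 17.8 and 23.6. These genes were chosen after their values were seen, and the other pals genes did not share 1 order: of the 18 members that rose against the single mutant without a filter, 8 were highest in replicate 1, 2 in replicate 2, 1 in replicate 3 and 7 in replicate 4, where hsp-16.2 was highest too.

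Below the filter, 2 further genes of the pathogen response list were higher in the double than in the single mutant without overlap. eol-1 and sdz-6, also below it, overlapped between the mutants. The F-box gene fbxa-75 read 0.0737, 0.204, 0.252 and 0.126 in wild type, 0.0319, 0.238, 0.0819 and 0.0414 in the single mutant and 0.986, 0.427, 0.806 and 0.727 in the double mutant, with the double mutant above the other 8 samples. F26F2.3 read 0.802, 0.536, 0.525 and 0.913 in wild type, 0.452, 0.583, 0.31 and 0.545 in the single mutant and 1.33, 0.806, 1.26 and 0.969 in the double mutant. The mutants did not overlap, but the double mutant overlapped wild type.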
